A study of Mus musculus with 15 samples.

Results

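The genes described here are 45 mouse genes that are known to be imprinted, that is, expressed mainly from the chromosome inherited from the mother or mainly from that inherited from the father. They were followed through the directed differentiation of induced pluripotent stem cells (iPSCs) into candidate smooth muscle cells and compared with smooth muscle cells of the aorta. A probe set belonged to the group when the Entrez Gene ID in its name mapped to the symbol of a listed gene, and 45 of the 25206 probe sets on the array did. By the allele usually expressed, 23 were paternal, 21 maternal, and Gnas depends on the transcript. The array sums both alleles, so the allele itself was not measured.

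Total RNA of 15 samples in 5 groups of 3 was hybridised to Affymetrix mouse gene arrays, and the deposited values are log2 expression values. Day 0 samples were undifferentiated iPSCs. Day 5 samples were mesodermal progenitors sorted for Kdr, the VEGF receptor also called Flk-1. Day 13 samples were candidate smooth muscle cells, sorted into a fraction with (GFP+) and a fraction without (GFP-) signal of Acta2hrGFP, a fluorescent reporter named for smooth muscle alpha-actin. The reference group was primary aortic smooth muscle cells sorted for the same reporter, 3 samples. Acta2 is also active in myofibroblasts and early cardiac muscle, so the reporter alone does not define smooth muscle. No drug or gene deletion is named for any group. The series title names 1 reporter iPSC line, so all cultured groups share it. Whether it is a single clone, and from mice of which strain and age the aortic cells came, the sources used here do not give.

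Imprinted genes lie in clusters, each governed by a control region that carries DNA methylation on the allele from the egg or from the sperm, and a cluster usually holds both paternally and maternally expressed genes and a long noncoding RNA. Many of them act on growth: Igf2 and other paternally expressed genes promote fetal growth, and Igf2r, Grb10, Cdkn1c and Phlda2, from the maternal allele, restrain it. Igf2, H19, Plagl1, Dlk1, Mest and Peg3 are high in the embryo and are turned down together in most organs after birth. In Ascl2, Tssc4, Cd81 and Slc22a3 imprinting is mainly placental.

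Marker genes of the labelled stages were compared first. All 7 pluripotency markers were lower and all 8 mesoderm markers higher at day 5 than at day 0. All 8 smooth muscle markers were higher in day 13 GFP+ cells than at day 5. The mesoderm list holds Kdr, the sorted antigen of day 5, and the smooth muscle list holds Acta2, the gene of the reporter. The sorts selected for these members, so they are no independent sign of cell identity. Myh11, the smooth muscle myosin, read 4.36 to 4.78 in day 13 GFP+ cells and 10.97 to 11.11 in aortic cells, so the day 13 cells were far from the aortic level of this defining marker. Sample medians lay between 4.08 and 4.29, and correlations between samples of a group between 0.977 and 0.995. The number of arrays limits the precision. The design text calls the samples biological triplicates without saying what was separate, so p-values measure the spread between these samples. In these bulk RNA samples, fewer cells of a type and less RNA per cell cannot be told apart. The 2 day 13 samples numbered 3 stood apart from those numbered 5 and 6 in both sorts for several of the genes, and results that turn on them are given with and without them. A low-level reference was set at the 95th percentile of 1385 olfactory, vomeronasal and taste receptor probe sets, which was 3.84 at day 0, 3.68 at day 5, 3.63 and 3.68 in day 13 GFP- and GFP+ cells, and 3.99 in aortic cells.

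Of the 45 genes, 35 lay above that reference at day 0, 36 at day 5, 38 in day 13 GFP- cells, 37 in day 13 GFP+ cells and 29 in aortic cells. The share of all probe sets above it ran from 54.6% in aortic cells to 59.1% in day 13 GFP- cells. In every group 25 genes were above it, in no group were 5 (Slc22a18, Dio3, Calcr, Snrpn and Rasgrf1), and 15 were above it in some groups. The paternally expressed genes above the reference numbered 20 of 23 in each day 13 sort and 13 of 23 in the aorta. The maternally expressed ones numbered 17 of 21 in day 13 GFP- cells, 16 in GFP+ cells and 15 in the aorta.

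**Figure D1:**
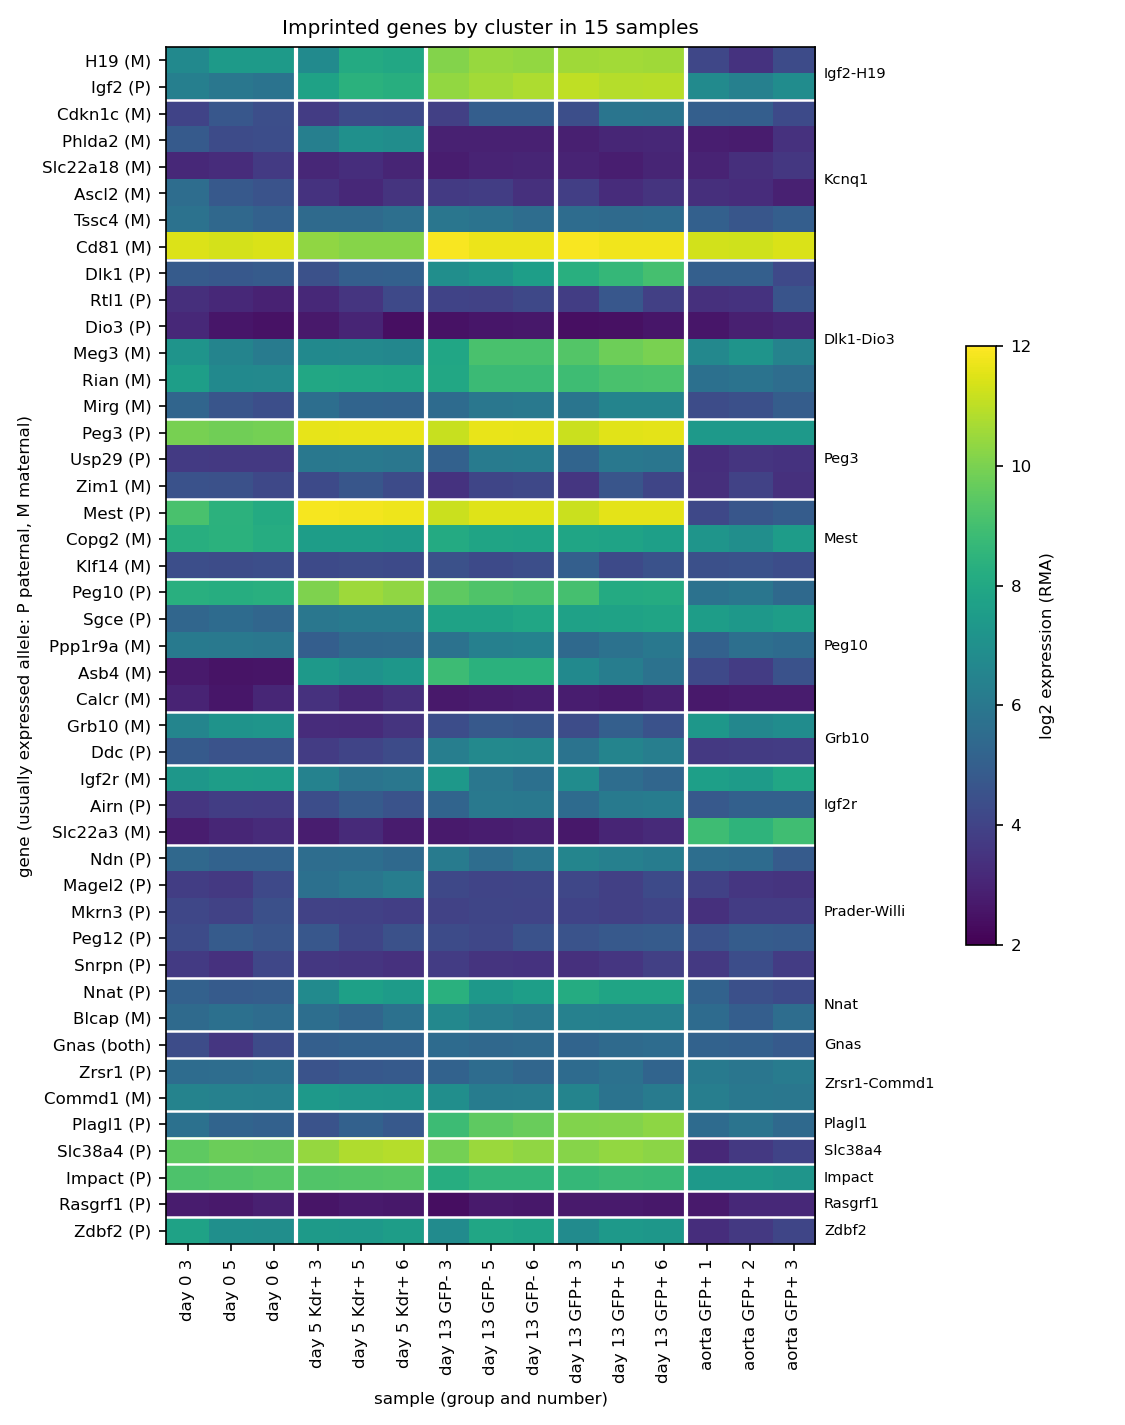
Log2 expression (RMA) of the 45 imprinted genes (rows, grouped by cluster, with P for paternal and M for maternal expression) in each of the 15 samples (columns). The yellow blocks of Igf2, H19, Plagl1, Mest, Peg3 and Slc38a4 in the cultured cells end at the 3 aortic samples, where Slc22a3, dark in every cultured sample, has a mean of 8.77.

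Between day 0 and day 5, 24 of the 45 genes (53.3%) passed the threshold (limma, adjusted p under 0.05), 16 higher and 8 lower, against 28.8% of all probe sets (14.9% higher and 13.9% lower). From day 5 to day 13, 20 genes (44.4%) changed in GFP- cells, 14 higher and 6 lower, where 26% of all probe sets did (12% and 13.9%). In GFP+ cells 23 (51.1%) changed, 16 higher and 7 lower, where 31.2% of all did (14.3% and 16.9%). Both of these comparisons use the same day 5 samples. Over the same step 4 of 6 fibroblast markers were higher and 1 lower in each sort. Their summed levels were 8.93 to 9.13 at day 5, 9.89 to 11.30 in GFP- and 11.51 to 12.13 in GFP+ cells. Of 6 cardiac markers, 4 were higher in GFP- and 3 in GFP+ cells (7.19 to 7.38, then 9.27 to 10.03 and 9.74 to 10.03). Of 6 endothelial markers, 5 were higher in GFP- and 1 in GFP+ cells (6.78 to 7.10, then 8.23 to 8.71 and 7.53 to 7.92). All 6 endoderm markers were higher in GFP- cells and none passed in GFP+ cells. The part of such cells in the changes of the imprinted genes was not tested. Against day 0, 28 genes (62.2%) differed in day 13 GFP+ cells, 22 higher and 6 lower, with 37.5% over all probe sets (17.7% and 19.8%).

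The aorta showed the opposite balance. Compared with day 13 GFP+ cells, 24 genes were lower and 4 higher in aortic cells (62.2% in all), where 37.2% of all probe sets differed (17.7% higher and 19.5% lower). The median difference of the 45 genes was -0.54 on the log2 scale, beside 0.07 over all probe sets. Against day 0 cells, 16 were lower and 7 higher (51.1% in all), where 47.7% of all differed (23.3% and 24.4%), so this total lay near the background. These comparisons share the day 13, day 0 or aortic samples and are not independent of each other. In all, 39 genes passed in at least 1 comparison, and Slc22a18, Dio3, Klf14, Peg12, Snrpn and Rasgrf1 passed in none. The share of all probe sets that passed in at least 1 was not counted, so the 39 have no background beside them.

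By allele, 10 of the 23 paternally expressed genes were higher and 2 lower at day 5 than at day 0. Of the 21 maternally expressed genes 5 were higher and 6 lower, where 14.9% of all probe sets were higher and 13.9% lower. In day 13 GFP+ cells against day 0, 13 paternally expressed genes were higher and 1 lower. There 8 maternally expressed genes were higher and 5 lower, with 17.7% and 19.8% over all probe sets. In aortic against day 13 GFP+ cells, 15 paternally expressed genes were lower and 1 higher, with a median of -1.42. Among maternally expressed genes 9 were lower and 3 higher, with a median of -0.49. Of all probe sets 19.5% were lower and 17.7% higher there. These counts describe the lists, and the difference between the alleles was not tested.

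**Figure D2:**
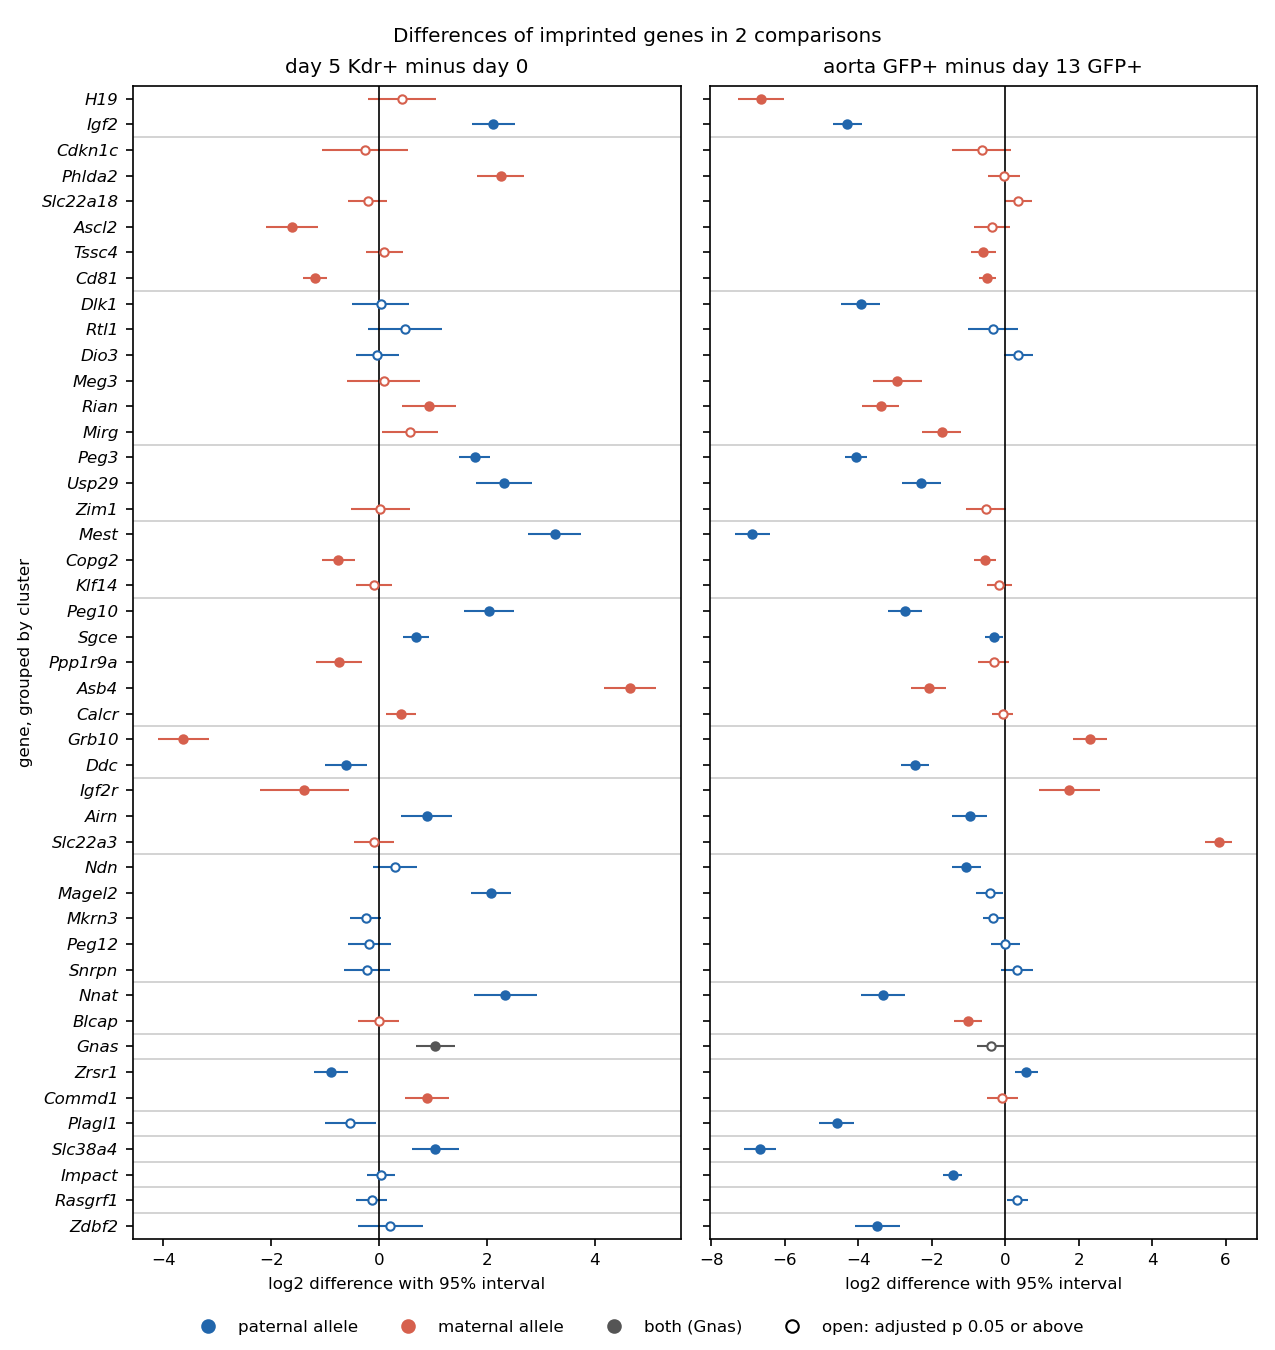
Log2 difference of each imprinted gene with its 95% interval, for day 5 Kdr+ minus day 0 cells (left) and aortic GFP+ minus day 13 GFP+ cells (right). Filled points passed the threshold, open points did not, and colour gives the usually expressed allele. On the left the filled points lie on both sides of the line, and on the right 24 of 28 lie to the left of it, with Slc22a3, Grb10, Igf2r and Zrsr1 to the right.

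Igf2, the fetal insulin-like growth factor, rose at each step of the differentiation. Its log2 level was 6.31, 5.97 and 5.80 at day 0, 7.75, 8.40 and 8.29 at day 5, 10.38, 10.60 and 10.76 in day 13 GFP- cells, 11.06, 10.88 and 10.93 in day 13 GFP+ cells and 6.80, 6.36 and 6.85 in the aorta. The groups of the cultured series did not overlap from day 0 to day 5 to day 13, and the aortic samples stood just above those of day 0. Igf2 rose by 2.12 (standard error 0.19, adjusted p = 3.27e-07) at day 5 and by a further 2.81 (standard error 0.19, adjusted p = 1.38e-08) in GFP+ cells, which made it 30.5-fold higher than at day 0. In aortic cells it was 19.6-fold lower than in day 13 GFP+ cells, a fall by 4.29, and 0.64 (standard error 0.19, adjusted p = 0.0098) above day 0, a call that was lost (adjusted p = 0.0502) without day 0 sample 6.

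H19 is the maternally expressed noncoding RNA that shares the control region of Igf2. H19 read 6.76, 7.47 and 7.44 at day 0, 6.80, 8.12 and 8.0 at day 5, 10.16, 10.45 and 10.37 and 10.58, 10.63 and 10.58 in the GFP- and GFP+ cells of day 13, and 4.13, 3.48 and 4.27 in the aorta. Day 0 and day 5 overlapped, all 6 day 13 samples were higher than these, and all 3 aortic samples were lower than every cultured sample. The rise from day 5 to GFP+ cells was 2.96 (standard error 0.30, adjusted p = 1.01e-06) and that to GFP- cells 2.68 (adjusted p = 4.79e-06). In the aorta H19 fell by 6.64 (standard error 0.30, adjusted p = 9.1e-11) from day 13 GFP+ cells, a ratio of 99.8, to a mean under the low-level reference. It was also 9.61-fold lower there than in iPSCs, whereas Igf2 was not lower.

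Plagl1, a paternally expressed zinc finger factor that slows the cell cycle, had the largest rise of the 45 genes between day 5 and day 13. The levels were 5.74, 5.24 and 5.09 at day 0, 4.56, 5.12 and 4.79 at day 5, 8.86, 9.53 and 9.73 in GFP- cells, 10.11, 10.15 and 10.28 in GFP+ cells and 5.50, 5.85 and 5.42 in the aorta. Every day 13 sample was at least 3 log2 units above every sample of the other groups, and the GFP+ samples were all above the GFP- samples. The rise from day 5 was 5.36 (standard error 0.22, adjusted p = 1.18e-10) in GFP+ and 4.55 (standard error 0.22, adjusted p = 1.14e-09) in GFP- cells, 41-fold and 23.4-fold. The difference between the sorts, 0.80 (standard error 0.22, adjusted p = 0.0528), missed the threshold. In the aorta Plagl1 fell by 4.59 (standard error 0.22, adjusted p = 2.29e-10) from day 13 GFP+ cells and did not differ from day 0 by the test (0.23, adjusted p = 0.417). The start of Plagl1 lies within its CpG-rich control region, and the bases before it (chr10:13090682-13090831, plus strand of GRCm38.p6, from RefSeq, with CG in capitals and 13 of them) show where such methylation can sit.
Plagl1 upstream of its start: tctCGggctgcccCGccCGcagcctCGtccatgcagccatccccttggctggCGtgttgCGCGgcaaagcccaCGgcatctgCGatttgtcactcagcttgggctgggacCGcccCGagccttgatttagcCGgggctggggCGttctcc

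Mest, a paternally expressed hydrolase-fold protein of mesoderm, rose early and stayed high. It read 9.12, 8.42 and 8.13 at day 0, 11.87, 11.82 and 11.74 at day 5, 11.19, 11.51 and 11.51 in GFP- cells, 11.19, 11.59 and 11.60 in GFP+ cells and 4.16, 4.67 and 4.91 in the aorta. All 9 samples of day 5 and day 13 lay above 11, and the aortic samples were the lowest of the 15. Mest rose by 3.26 (standard error 0.23, adjusted p = 2.42e-08) from day 0 to day 5, 9.55-fold, and the later difference of -0.36 (adjusted p = 0.309) in GFP+ cells did not pass. Between day 13 GFP+ and aortic cells it fell by 6.88 (standard error 0.23, adjusted p = 3.35e-12), 117-fold, to a mean above the low-level reference. The bases before its start (chr6:30737900-30738049, plus strand, GRCm38.p6) hold 11 CpG, in capitals.
Mest upstream of its start: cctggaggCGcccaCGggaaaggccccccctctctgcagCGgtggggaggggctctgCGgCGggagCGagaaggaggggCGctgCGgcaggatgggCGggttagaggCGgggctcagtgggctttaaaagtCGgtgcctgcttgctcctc

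The neighbours of Mest did not share its rise. Copg2, a coatomer subunit whose gene overlaps Mest at its end in RefSeq, read 6.95 to 8.40 over the 15 samples and fell by 0.75 (standard error 0.14, adjusted p = 0.000683) at day 5, opposite to Mest. It was lower in the aorta than in day 13 GFP+ cells by 0.54 (adjusted p = 0.00695), a call that was lost under cyclic loess scaling (-0.18, adjusted p = 0.332). Klf14, a maternally expressed Kruppel-like factor, lay between 4.23 to 5.04 and passed in no comparison. The sources used here do not give which strand the probes read, so signal of overlapping genes such as Mest and Copg2 cannot be told apart by position.

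Slc38a4, an amino acid transporter expressed from the paternal allele, was high in all cultured cells. Its values were 9.5, 9.75 and 9.72 at day 0, 10.42, 10.81 and 10.88 at day 5, 9.91, 10.50 and 10.34 in GFP- cells, 10.20, 10.38 and 10.26 in GFP+ cells and 3.15, 3.64 and 4.02 in the aorta. The 12 cultured samples all exceeded 9, and the aortic mean was under the low-level reference. It rose by 1.04 (standard error 0.20, adjusted p = 0.000873) at day 5, and fell by 6.67 (standard error 0.20, adjusted p = 1.13e-12) from day 13 GFP+ to aortic cells, 102-fold. From iPSCs to aorta it was 66.3-fold lower, the largest such fall among the 45.

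Zdbf2, a paternally expressed zinc finger gene, and Impact, a paternally expressed regulator of translation under stress, were lower in the aorta too. Zdbf2 read 7.77, 7.0 and 6.94 at day 0, 7.43, 7.36 and 7.55 at day 5, 6.84, 7.92 and 7.81 in GFP- cells, 6.81, 7.40 and 7.29 in GFP+ cells and 3.30, 3.68 and 4.08 in the aorta, and no cultured sample reached the aortic range. It passed in no comparison among cultured groups, and from day 13 GFP+ to aortic cells it fell by 3.48 (standard error 0.28, adjusted p = 9.01e-08). Impact kept 9.29 ± 0.09 at day 0 and 9.33 ± 0.04 at day 5 (SD, n = 3). It then fell by 0.88 (standard error 0.12, adjusted p = 4.88e-05) in GFP- and 0.58 (adjusted p = 0.00127) in GFP+ cells, and by a further 1.42 (adjusted p = 1.58e-07) in the aorta.

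The Peg3 cluster holds the paternally expressed Peg3, a zinc finger protein of mesoderm and muscle, and Usp29, a ubiquitin protease gene that starts from the same control region in the other direction. Peg3 read 9.95, 9.84 and 9.91 at day 0, 11.64, 11.68 and 11.68 at day 5, 11.18, 11.67 and 11.63 in GFP- cells, 11.22, 11.54 and 11.60 in GFP+ cells and 7.39, 7.37 and 7.42 in the aorta. Usp29 read 3.72, 3.67 and 3.67, then 6.00, 6.03 and 5.98, 5.10, 6.17 and 6.18, 5.21, 5.99 and 5.94 and 3.30, 3.55 and 3.45 in the same order of groups. Both genes were higher in every day 5 and day 13 sample than in every day 0 sample, and in both the day 13 samples numbered 3 were the lowest of their sort. Peg3 rose by 1.77 (standard error 0.14, adjusted p = 7.89e-08) and Usp29 by 2.32 (standard error 0.25, adjusted p = 2.44e-06) at day 5, and neither differed between day 5 and either day 13 sort by the test. From day 13 GFP+ cells to the aorta, Peg3 fell by 4.06 (standard error 0.14, adjusted p = 4.03e-12), 16.7-fold, and Usp29 fell by 2.28 (standard error 0.25, adjusted p = 2.17e-06), 4.86-fold.

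For Usp29 the day 0 and aortic means lay under the low-level reference. The stretch between the starts of Peg3 and Usp29 (chr7:6730420-6730582, plus strand, GRCm38.p6, RefSeq) is the shared start region of this pair that rose and fell at the same steps, and its 5 CpG are in capitals.
Between the Peg3 and Usp29 starts: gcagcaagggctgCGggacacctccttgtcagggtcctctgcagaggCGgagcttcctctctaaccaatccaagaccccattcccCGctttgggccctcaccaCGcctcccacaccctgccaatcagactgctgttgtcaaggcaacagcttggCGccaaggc

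Zim1, a maternally expressed zinc finger gene of the same cluster, stayed between 3.36 to 4.69. It differed in aortic against day 0 cells (-0.80, adjusted p = 0.0172), a call lost without day 0 sample 3 or 5 (adjusted p = 0.0598 and 0.0542) or aortic sample 1 or 3 (0.0645 and 0.0646). Without the day 13 samples numbered 3 it also fell by 0.78 (adjusted p = 0.0122) from day 13 GFP+ cells to the aorta, beside -0.53 (adjusted p = 0.123) with them.

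The Dlk1-Dio3 cluster on mouse chromosome 12 expresses the protein genes Dlk1, Rtl1 and Dio3 from the paternal allele and a long chain of noncoding RNAs, Meg3, Rian and Mirg with their miRNAs and snoRNAs, from the maternal allele. Dlk1, Meg3, Rian and Mirg were higher in day 13 GFP+ cells than at day 5 and lower in the aorta than in GFP+ cells. Rtl1 and Dio3 passed in neither of these comparisons. Dlk1, a membrane protein related to Notch ligands, read 4.87, 4.74 and 4.88 at day 0, 4.46, 5.03 and 5.08 at day 5, 6.96, 7.18 and 7.61 in GFP- cells, 8.29, 8.68 and 9.05 in GFP+ cells and 5.01, 5.03 and 4.20 in the aorta. Day 0, day 5 and aortic samples overlapped, and GFP+ samples were all above GFP- samples. Dlk1 rose by 3.81 (standard error 0.25, adjusted p = 1.04e-08) from day 5 in GFP+ cells, 14.1-fold, and by 2.39 (standard error 0.25, adjusted p = 2.59e-06) in GFP- cells, 5.24-fold, and in the aorta it fell by 3.92 (standard error 0.25, adjusted p = 4.71e-09). Rtl1, a retrotransposon-derived gene of the fetal placenta, read 2.98 to 4.73. Its difference between day 13 GFP+ and day 0 cells, 0.99 (adjusted p = 0.0221), was lost without day 0 sample 5 or 6 (adjusted p = 0.0558 and 0.0765) or GFP+ sample 5 (0.127). Dio3, which inactivates thyroid hormone, stayed under the reference in all groups (2.39 to 3.15).

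Meg3, the first noncoding RNA of the maternal chain, read 7.16, 6.53 and 6.15 at day 0, 6.75, 6.70 and 6.65 at day 5, 7.91, 9.14 and 9.15 in GFP- cells, 9.31, 9.81 and 9.99 in GFP+ cells and 6.66, 7.19 and 6.47 in the aorta. GFP- sample 3 was more than 1 unit below the other GFP- samples, all 3 GFP+ samples were above every GFP- sample, and the remaining groups overlapped. Meg3 rose by 3.00 (standard error 0.32, adjusted p = 1.65e-06) in GFP+ cells and by 2.04 (standard error 0.32, adjusted p = 0.000132) in GFP- cells, or by 2.45 (adjusted p = 5.39e-06) without the day 13 samples numbered 3. In the aorta it fell by 2.93 (standard error 0.32, adjusted p = 2.03e-06) from day 13 GFP+ cells, to a level that did not differ from day 0 by the test.

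Rian, which carries snoRNAs in its introns, read 7.59, 6.73 and 6.71 at day 0, 8.0, 7.93 and 7.90 at day 5, 7.99, 8.83 and 8.81 in GFP- cells, 8.90, 9.13 and 9.18 in GFP+ cells and 5.67, 5.81 and 5.57 in the aorta. Unlike Meg3, whose day 5 difference was 0.08 (adjusted p = 0.902), it was higher at day 5 than at day 0 in all samples, a rise by 0.93 (standard error 0.23, adjusted p = 0.00609); the difference between the 2 genes was not tested. It was higher again in GFP+ cells by 1.13 (standard error 0.23, adjusted p = 0.00121), and the GFP- difference of 0.60 (adjusted p = 0.0735) passed only without the samples numbered 3 (0.88, adjusted p = 0.00538). The aortic level was below that of day 13 GFP+ cells, where Rian fell by 3.39 (standard error 0.23, adjusted p = 1.31e-08), and below that of iPSCs, where it fell by 1.33 (adjusted p = 0.000164). Mirg, the last noncoding RNA of the chain and a host of miRNAs, rose by 0.97 (standard error 0.24, adjusted p = 0.00558) in GFP+ cells and fell by 1.73 (standard error 0.24, adjusted p = 3.47e-05) in the aorta.

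The bases before the starts of Dlk1 (chr12:109452673-109452822) and Meg3 (chr12:109540846-109540995), both on the plus strand of GRCm38.p6 from RefSeq, are shown as the start regions of the paternal and the maternal transcript that were high in the same samples. Each holds 6 CpG, in capitals.
Dlk1 upstream of its start: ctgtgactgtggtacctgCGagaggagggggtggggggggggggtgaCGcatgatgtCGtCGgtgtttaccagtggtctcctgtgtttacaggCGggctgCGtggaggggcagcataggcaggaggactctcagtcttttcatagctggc
Meg3 upstream of its start: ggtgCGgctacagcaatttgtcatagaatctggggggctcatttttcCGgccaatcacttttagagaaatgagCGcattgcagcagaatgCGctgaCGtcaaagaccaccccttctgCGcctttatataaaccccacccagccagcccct

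The miRNA genes between Meg3 and Dio3 followed the same course. RefSeq places 54 there and the array measured 48 of them. From day 5 to day 13 GFP+ cells 42 were higher, where 14.3% of all probe sets were, and the other genes did not pass. The median of the 48 was 1.13 beside -0.00 over all probe sets. Of these 42, 27 were above the low-level reference in GFP+ cells and 15 were under it even there. In GFP- cells 16 were higher (12% over all). At day 5 against day 0, 2 were higher (Mir431 and Mir453), where 14.9% of all were. In the aorta 41 were lower than in day 13 GFP+ cells (19.5% over all), and against day 0 cells 4 were higher (23.3% over all). Of the 48, 29 lay above the low-level reference in GFP+ cells, 25 in GFP- cells, 17 at day 5, 14 in the aorta and 10 at day 0. These counts are of neighbouring genes on a shared precursor, so they are not independent, and the interval was chosen after the values of the cluster had been seen. Of 19 snoRNA genes of the interval in RefSeq, 6 were measured. All 6 were higher in GFP+ cells than at day 5 (14.3% over all) and lower in the aorta than in GFP+ cells (19.5% over all).

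**Figure D3:**
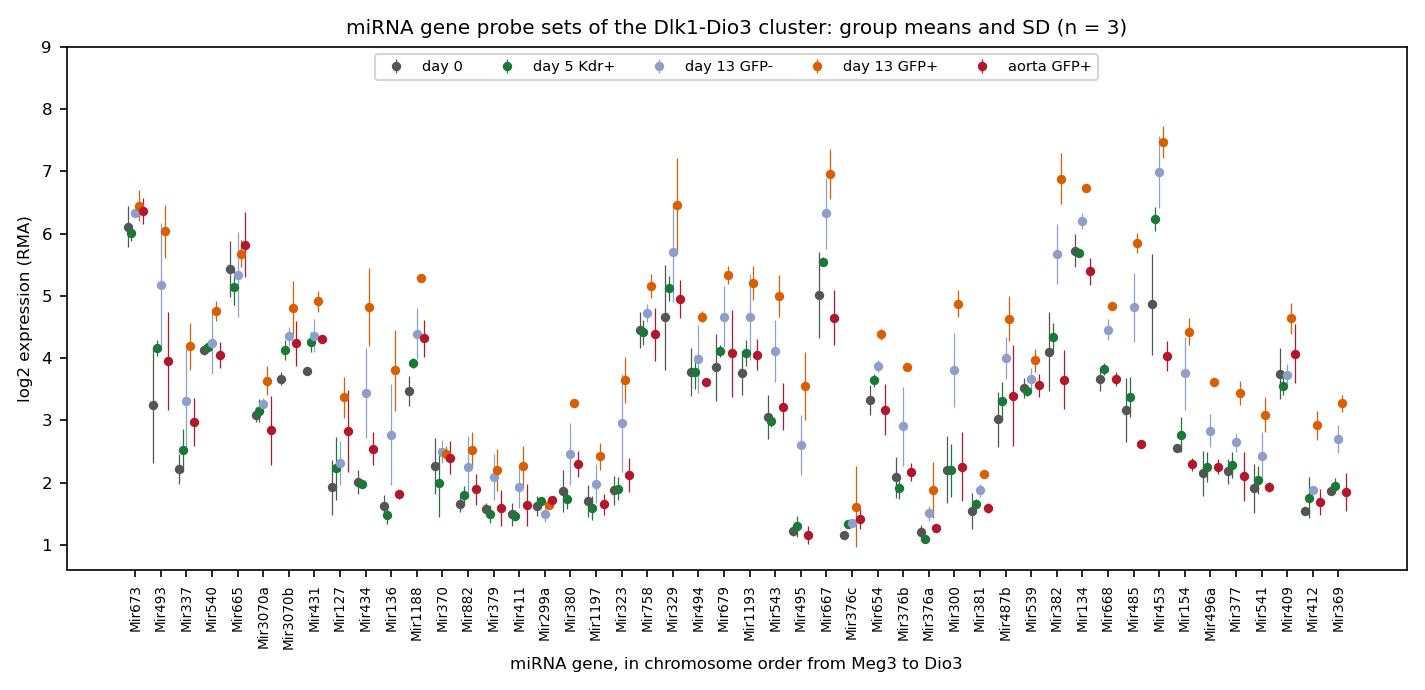
Group mean and SD (n = 3) of log2 expression (RMA) for 48 miRNA genes between Meg3 and Dio3, in chromosome order, with a colour for each group. The orange points of day 13 GFP+ cells lie above the green points of day 5 for 42 genes that passed the threshold, and the red aortic points lie near the grey and green ones.

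Mir434, Mir300, Mir382 and Mir485 had the 4 largest fitted differences among these miRNA genes. At day 5 Mir434, Mir300 and Mir485 were under the low-level reference, so the sizes of their rises, and their order, start from a level not told from background. Mir434 read 1.84, 1.95 and 2.22 at day 0, 2.01, 2.00 and 1.93 at day 5, 2.61, 3.88 and 3.83 in GFP- cells, 4.20, 5.47 and 4.79 in GFP+ cells and 2.26, 2.61 and 2.78 in the aorta. Mir382 read 4.79, 3.55 and 3.97, then 4.59, 4.30 and 4.12, 5.12, 5.91 and 5.98, 6.41, 7.10 and 7.15 and 3.42, 3.35 and 4.20 in the same order. In both genes the GFP+ samples were above every sample of day 0, day 5 and the aorta. The rise from day 5 to GFP+ cells was 2.84 (adjusted p = 2.95e-06) for Mir434, 2.68 (adjusted p = 1.06e-05) for Mir300, 2.55 (adjusted p = 1.11e-05) for Mir382 and 2.47 (adjusted p = 2.22e-06) for Mir485. In the aorta Mir485 fell by 3.23 (adjusted p = 1.02e-07) and Mir382 fell by 3.23 (adjusted p = 8.22e-07) from the GFP+ level. A probe set reads the gene and cannot tell the arms of a miRNA apart, so the mature forms given here from RefSeq (GRCm38.p6, seed bases 2 to 8 in capitals) are those the genes encode.
mmu-miR-434-5p: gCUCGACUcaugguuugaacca
mmu-miR-434-3p: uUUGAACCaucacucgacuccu
mmu-miR-300-5p: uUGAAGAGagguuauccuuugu
mmu-miR-300-3p: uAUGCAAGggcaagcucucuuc
mmu-miR-382-5p: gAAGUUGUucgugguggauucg
mmu-miR-382-3p: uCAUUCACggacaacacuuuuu
mmu-miR-485-3p: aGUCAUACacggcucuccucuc

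Few mature miRNAs of the interval share a seed. Of 101 mature sequences there were 92 distinct seeds, and 18 sequences shared 9 seeds. The pairs below are shown because members of a pair can recognise the same targets by seed. The differences between the genes of a pair were not tested. From day 5 to GFP+ cells Mir379 rose by 0.70 (adjusted p = 0.0132), Mir1193 by 1.12 (adjusted p = 0.00495), Mir453 by 1.23 (adjusted p = 0.00879), Mir496a by 1.37 (adjusted p = 1.82e-05) and Mir376b by 1.94 (adjusted p = 1.01e-05), and Mir376c, at 0.28 (adjusted p = 0.433), did not pass. Mir379, Mir496a and Mir376c lay under the low-level reference in GFP+ cells.
mmu-miR-379-5p: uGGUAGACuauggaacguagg
mmu-miR-1193-5p: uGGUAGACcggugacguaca
mmu-miR-453: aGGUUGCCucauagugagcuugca
mmu-miR-496a-5p: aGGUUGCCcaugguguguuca
mmu-miR-376b-5p: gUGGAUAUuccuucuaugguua
mmu-miR-376c-5p: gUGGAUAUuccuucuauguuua

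The Kcnq1 cluster, maternally expressed on chromosome 7, did not move as a block. Phlda2, a protein that restrains placental growth, read 4.82, 4.27 and 4.38 at day 0, 6.30, 7.02 and 6.92 at day 5, 2.92, 2.91 and 2.92 in GFP- cells, 2.89, 3.06 and 3.13 in GFP+ cells and 2.82, 2.78 and 3.42 in the aorta. It was highest in all day 5 samples and lay under the low-level reference in both day 13 sorts and the aorta. Phlda2 rose by 2.26 (standard error 0.21, adjusted p = 4.21e-07) at day 5 and then fell by 3.72 (standard error 0.21, adjusted p = 2.12e-09) in GFP+ and 3.83 (adjusted p = 2.84e-09) in GFP- cells. Ascl2, a helix-loop-helix factor of trophoblast, went the other way at the first step, with 5.56, 4.79 and 4.56 at day 0 and 3.45, 3.16 and 3.49 at day 5, and fell by 1.61 (standard error 0.23, adjusted p = 4.77e-05) to a mean under the reference. From day 13 to the aorta its group means were between 3.18 and 3.64.

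Cd81, a tetraspanin of the cell surface, was high in all groups and dipped at day 5. Its levels were 11.45, 11.36 and 11.45 at day 0, 10.35, 10.17 and 10.19 at day 5, 11.89, 11.70 and 11.71 in GFP- cells, 11.92, 11.79 and 11.79 in GFP+ cells and 11.33, 11.28 and 11.43 in the aorta. The day 5 samples were the lowest of the 15 and did not overlap any other group. Cd81 fell by 1.19 (standard error 0.11, adjusted p = 4.09e-07) at day 5 and rose by 1.60 (standard error 0.11, adjusted p = 1.45e-08) in GFP+ cells. Its aortic difference of -0.49 (adjusted p = 0.00191) from GFP+ cells turned to 0.19 (adjusted p = 0.193) under cyclic loess scaling. Tssc4, an RNA-splicing complex assembly protein, was lower in the aorta than in GFP+ cells (-0.59, adjusted p = 0.00936).

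Cdkn1c, the cell-cycle inhibitor p57, read 4.0, 4.71 and 4.39 at day 0, 3.77, 4.30 and 4.26 at day 5, 3.88, 4.98 and 4.98 in GFP- cells, 4.42, 5.90 and 5.83 in GFP+ cells and 5.02, 4.97 and 4.26 in the aorta. In both day 13 sorts sample 3 was more than 1 unit below samples 5 and 6, which lay close together. The rise from day 5 to GFP+ cells, 1.27 (standard error 0.38, adjusted p = 0.0153), was lost without day 5 sample 3 or GFP+ sample 5 or 6 (adjusted p = 0.0716, 0.0827 and 0.078), and without the samples numbered 3 it was 1.76 (adjusted p = 6.24e-05). Without those samples GFP- cells were also higher than day 5 by 0.87 (adjusted p = 0.0151), beside 0.51 (adjusted p = 0.421) with them, and the aortic difference was -1.12 (adjusted p = 0.00245), beside -0.64 (adjusted p = 0.207). Slc22a18, a transporter-like protein, stayed between 2.80 to 3.68, and its group means were under the reference.

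In the Peg10 cluster on chromosome 6, 4 of 5 genes were higher and 1 lower at day 5 than at day 0. Of all probe sets 14.9% were higher and 13.9% lower there. Among these 4, Calcr lay under the low-level reference in every group. Peg10, a paternally expressed gene derived from a retrotransposon and needed for the placenta, read 8.31, 8.24 and 8.31 at day 0, 10.08, 10.55 and 10.34 at day 5, 9.51, 9.24 and 9.12 in GFP- cells, 9.06, 8.12 and 8.15 in GFP+ cells and 5.78, 5.94 and 5.43 in the aorta. It peaked in all 3 day 5 samples and was lowest in the aorta. Peg10 rose by 2.04 (standard error 0.22, adjusted p = 2.76e-06) at day 5, then fell by 1.88 (standard error 0.22, adjusted p = 5.07e-06) in GFP+ and 1.03 (adjusted p = 0.00196) in GFP- cells, and fell by 2.73 (standard error 0.22, adjusted p = 7.5e-08) from GFP+ cells to the aorta. Sgce, epsilon-sarcoglycan of the muscle and vascular dystrophin complex, starts beside Peg10 yet read 5.29, 5.51 and 5.30 at day 0, 5.98, 6.10 and 6.10 at day 5, 7.76, 7.77 and 7.91 in GFP- cells, 7.74, 7.78 and 7.84 in GFP+ cells and 7.56, 7.34 and 7.55 in the aorta. Each step up from day 0 to day 5 to day 13 was without overlap, by 0.69 (standard error 0.11, adjusted p = 0.000161) and then 1.73 (standard error 0.11, adjusted p = 9.29e-09) in GFP+ cells. The aortic level stayed 4.33-fold above day 0, and its small difference from GFP+ cells (-0.30, adjusted p = 0.0432) did not hold when the 2 groups were fitted alone (adjusted p = 0.13) or under cyclic loess (-0.02, adjusted p = 0.9). It was also lost without any of the GFP+ samples (adjusted p from 0.0619 to 0.123) or without aortic sample 2 (0.146).

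Asb4, an ankyrin-repeat and SOCS-box protein known from endothelial and placental differentiation, had the largest rise at day 5. The samples read 2.73, 2.51 and 2.55 at day 0, 7.36, 7.11 and 7.28 at day 5, 8.85, 8.38 and 8.38 in GFP- cells, 6.75, 6.22 and 5.78 in GFP+ cells and 4.22, 3.77 and 4.51 in the aorta. Day 0 was under the low-level reference, and the 5 groups were separated from each other without overlap. Asb4 rose by 4.65 (standard error 0.22, adjusted p = 3.7e-10) at day 5, 25.1-fold. It then rose by 1.29 (standard error 0.22, adjusted p = 0.000389) in GFP- cells and fell by 1.00 (standard error 0.22, adjusted p = 0.00237) in GFP+ cells. The aortic level was lower than that of GFP+ cells by 2.08 (adjusted p = 2.08e-06) and higher than that of day 0 by 1.57 (standard error 0.22, adjusted p = 2.11e-05).

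Ppp1r9a, the neuronal scaffold neurabin, read 5.00 to 6.42 over all samples and fell by 0.74 (standard error 0.20, adjusted p = 0.0095) at day 5, a call lost without day 5 sample 3 (adjusted p = 0.0572). It rose by 0.90 (standard error 0.20, adjusted p = 0.00259) in GFP- cells. Without the day 13 samples numbered 3 its GFP+ rise from day 5 was 0.60 (adjusted p = 0.0153), and its aortic difference from GFP+ cells -0.46 (adjusted p = 0.0478), both short of the threshold with them (0.44 (adjusted p = 0.117) and -0.31 (adjusted p = 0.245)). Calcr, the calcitonin receptor, stayed under the reference in all groups, between 2.59 to 3.41. Its higher value at day 5 than at day 0 (0.41, adjusted p = 0.0292) was lost without day 0 sample 5 or day 5 sample 3 or 6 (adjusted p from 0.096 to 0.169).

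**Figure D4:**
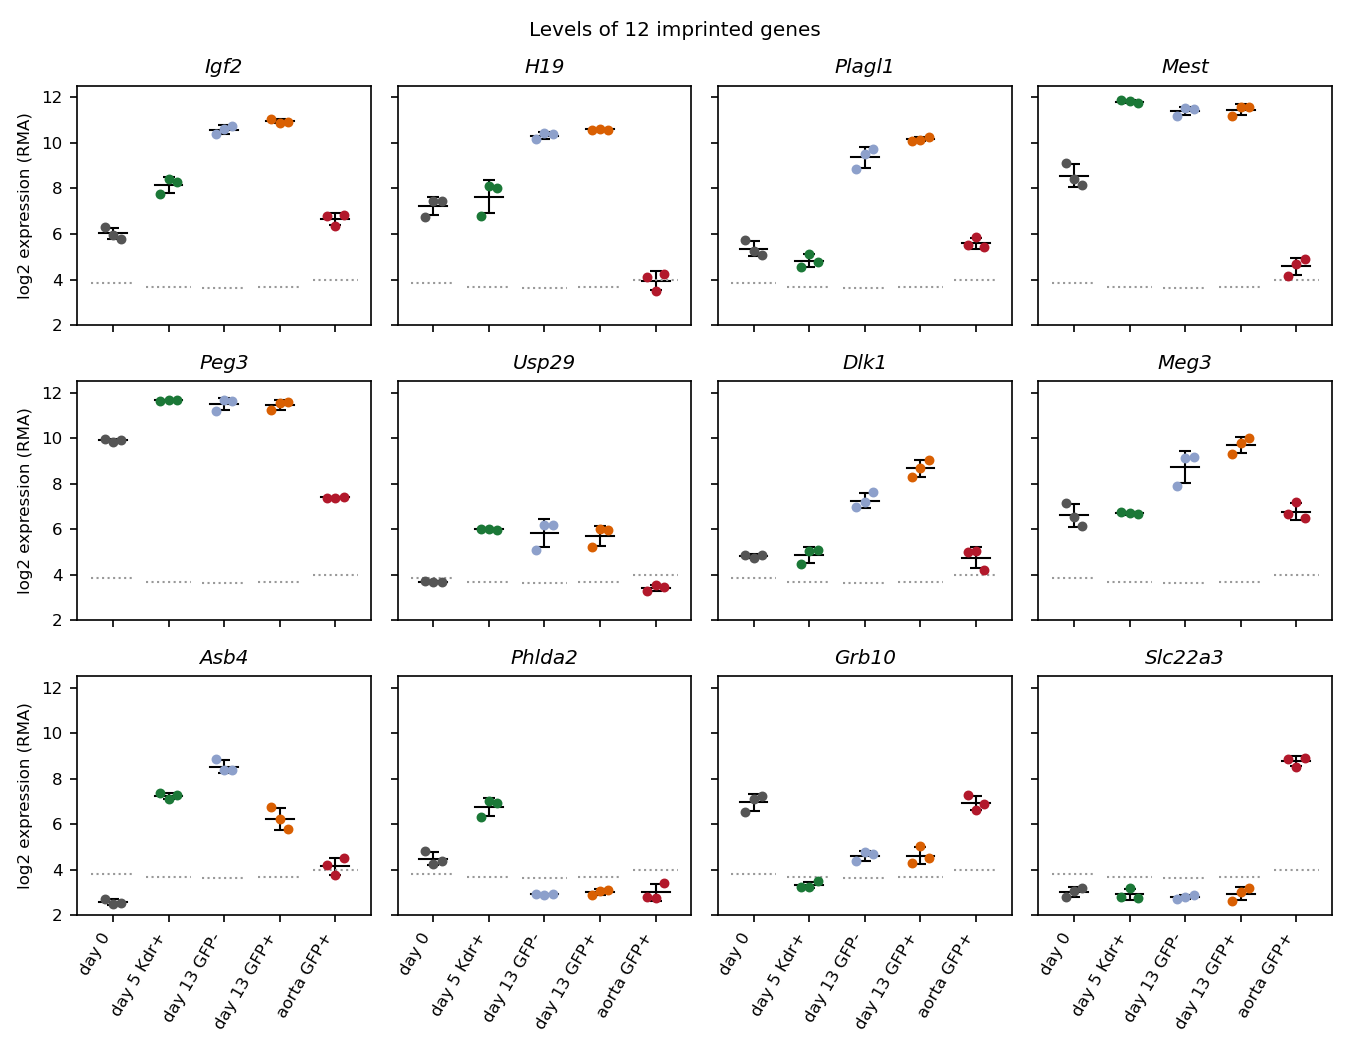
Log2 expression (RMA) of 12 imprinted genes in the 5 groups. Each point is a sample, bars give the mean and SD (n = 3), and dotted lines mark the low-level reference of each group. Igf2, H19, Plagl1, Dlk1 and Meg3 are highest at day 13, Mest and Peg3 are high from day 5 on, Phlda2 is highest at day 5, and Slc22a3 is above its line in the aorta.

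Of the 4 growth-restraining genes named above, Grb10 and Igf2r were lower at day 5 than at day 0 and higher in the aorta than in day 13 GFP+ cells, while Phlda2 was higher at day 5, Cdkn1c did not pass there, and neither of these passed between GFP+ cells and the aorta. Grb10, a maternally expressed adaptor that dampens insulin and IGF signalling, read 6.55, 7.13 and 7.22 at day 0, 3.27, 3.24 and 3.51 at day 5, 4.37, 4.81 and 4.68 in GFP- cells, 4.31, 5.05 and 4.51 in GFP+ cells and 7.29, 6.65 and 6.88 in the aorta. The day 5 mean was under the low-level reference, the day 13 sorts overlapped each other at an intermediate level, and the day 0 and aortic samples overlapped at the top. Grb10 fell by 3.63 (standard error 0.22, adjusted p = 4.92e-09) at day 5, 12.4-fold, rose by 1.28 (standard error 0.22, adjusted p = 0.000233) in GFP+ cells and was 2.31 (standard error 0.22, adjusted p = 5.14e-07) higher in the aorta than in GFP+ cells. The aortic difference from day 0 was -0.03 (95% interval -0.50 to 0.44, adjusted p = 0.923). Ddc, the neighbouring decarboxylase that makes dopamine and serotonin, read 4.82, 4.57 and 4.56 at day 0, 3.77, 4.07 and 4.28 at day 5, 6.30, 6.71 and 6.68 in GFP- cells, 5.79, 6.5 and 6.27 in GFP+ cells and 3.67, 3.74 and 3.79 in the aorta. It was highest in the 6 day 13 samples, rising by 2.53 (standard error 0.18, adjusted p = 5.75e-08) in GFP- and 2.15 (standard error 0.18, adjusted p = 1.55e-07) in GFP+ cells, and in the aorta it fell by 2.46 (standard error 0.18, adjusted p = 2.63e-08) to a mean under the reference. Its fall at day 5 (-0.61, adjusted p = 0.0172) was lost without day 0 or day 5 sample 3 (adjusted p = 0.072 and 0.0955).

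Igf2r is the receptor that clears IGF2 from the cell surface, and Airn is the paternal noncoding RNA that runs antisense through it. Igf2r read 7.28, 7.59 and 7.52 at day 0, 6.42, 5.86 and 5.96 at day 5, 7.31, 5.98 and 5.68 in GFP- cells, 6.88, 5.59 and 5.32 in GFP+ cells and 7.63, 7.48 and 7.92 in the aorta. Sample 3 of each day 13 sort was more than 1 unit above its partners, at the day 0 and aortic range or just under it. Igf2r fell by 1.38 (standard error 0.39, adjusted p = 0.0128) at day 5, a call lost without day 5 sample 5 (adjusted p = 0.0518), and was 1.75 (standard error 0.39, adjusted p = 0.00205) higher in the aorta than in GFP+ cells. Without the samples numbered 3, Igf2r in GFP+ cells was below day 5 by 0.63 (adjusted p = 0.0192), beside a difference of -0.15 (adjusted p = 0.861) with them, and the aortic difference was 2.23 (adjusted p = 5.5e-07).

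Airn read 3.57, 3.80 and 3.79 at day 0, 4.37, 4.88 and 4.55 at day 5, 5.24, 6.03 and 5.99 in GFP- cells, 5.51, 6.12 and 6.19 in GFP+ cells and 4.80, 5.06 and 5.06 in the aorta. It rose at both steps without overlap, by 0.88 (standard error 0.22, adjusted p = 0.00546) and by 1.34 (standard error 0.22, adjusted p = 0.000142) in GFP+ cells, and was 1.96-fold lower in the aorta. The day 0 mean of 3.72 was under the low-level reference, so the first rise starts from a level not told from background. RefSeq overlaps Airn with Igf2r, and their signals cannot be told apart by position. Slc22a3, an organic cation transporter of the same cluster, read 2.80, 3.06 and 3.22 at day 0, 2.82, 3.21 and 2.78 at day 5, 2.71, 2.80 and 2.89 in GFP- cells, 2.64, 3.05 and 3.20 in GFP+ cells and 8.88, 8.5 and 8.92 in the aorta. Every cultured group was under the low-level reference and every aortic sample above 8, a rise by 5.81 (standard error 0.17, adjusted p = 8.65e-13) from GFP+ cells, 56-fold on the array scale.

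In the Prader-Willi cluster, which is expressed from the paternal allele, Magel2 and Ndn changed during the differentiation and Mkrn3, Peg12 and Snrpn did not pass at any step of it. Magel2, a MAGE family protein, read 3.80, 3.65 and 4.20 at day 0, 5.68, 5.94 and 6.25 at day 5, 4.16, 4.07 and 4.09 in GFP- cells, 4.12, 3.88 and 4.23 in GFP+ cells and 3.92, 3.56 and 3.51 in the aorta. Only the 3 day 5 samples exceeded 5, with a rise by 2.07 (standard error 0.17, adjusted p = 1.71e-07) and then a fall by 1.88 in GFP+ cells (adjusted p = 4.24e-07) and 1.85 in GFP- cells (adjusted p = 9.54e-07). Ndn, necdin, a growth suppressor of the same family, rose later: it was 5.52 ± 0.11 at day 5 and 6.38 ± 0.17 in GFP+ cells (SD, n = 3), a rise by 0.86 (standard error 0.19, adjusted p = 0.002), and in the aorta it fell by 1.05 (standard error 0.19, adjusted p = 0.000331). Mkrn3, a ubiquitin ligase known as a brake on puberty, was lower in the aorta than at day 0 (-0.52, adjusted p = 0.00455). Peg12 read 4.10 to 4.90 and Snrpn, a spliceosomal protein gene that RefSeq overlaps with Snurf and Snhg14, 3.38 to 4.36, and neither passed in a comparison.

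Nnat, neuronatin, a paternally expressed membrane proteolipid, lies in an intron of Blcap, whose promoter is maternal. Nnat read 5.09, 4.88 and 4.94 at day 0, 6.77, 7.67 and 7.49 at day 5, 8.36, 7.33 and 7.60 in GFP- cells, 8.14, 7.84 and 7.85 in GFP+ cells and 5.14, 4.46 and 4.25 in the aorta. All 9 samples of day 5 and day 13 were higher than all day 0 and aortic samples. Nnat rose by 2.34 (standard error 0.28, adjusted p = 7.14e-06) at day 5 and fell by 3.32 (standard error 0.28, adjusted p = 1.08e-07) in the aorta, 10-fold. Blcap rose at the second step, by 0.82 (adjusted p = 0.00175) in GFP+ and 0.77 (adjusted p = 0.00361) in GFP- cells, and fell by 1.01 (adjusted p = 0.000272) in the aorta.

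Gnas, the stimulatory G protein alpha subunit, read 4.32, 3.60 and 4.29 at day 0 and 5.02, 5.16 and 5.16 at day 5, a rise by 1.05 (standard error 0.17, adjusted p = 0.000184), and group means from 5.02 to 5.44 after that. The day 0 mean of 4.07 lay near the low-level reference of 3.84 and under the 99th percentile of 4.95, so this rise starts close to background. Zrsr1, a splicing factor retrogene inside an intron of Commd1, and Commd1, a copper-handling protein, moved in opposite directions at day 5. Zrsr1 fell by 0.89 (standard error 0.15, adjusted p = 0.000207) while Commd1 rose by 0.89 (standard error 0.19, adjusted p = 0.00213), and from day 5 to GFP+ cells Zrsr1 rose by 0.77 (adjusted p = 0.000593) while Commd1 fell by 1.14 (adjusted p = 0.000209). Against day 0, Commd1 in GFP+ cells was at -0.25 (adjusted p = 0.374), and it passed without the day 13 samples numbered 3 (-0.43, adjusted p = 0.0219). Zrsr1 was the only paternally expressed gene that was higher in the aorta than in GFP+ cells (0.57, adjusted p = 0.00578). Rasgrf1, a Ras exchange factor of neurons, stayed between 2.36 to 3.16 and under the reference in all groups.

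In the main fit, which did not pair the samples, the day 13 sorts differed in few imprinted genes. Of the 45, 3 (6.67%) passed between GFP+ and GFP- cells, 1 higher and 2 lower. Over all probe sets 4.53% passed (2.02% higher and 2.52% lower), so in this fit the share was near the background. Asb4 was 4.88-fold lower in GFP+ cells, with a fall by 2.29 (standard error 0.22, adjusted p = 2.28e-05). Dlk1 was 2.68-fold higher, with a difference of 1.42 (standard error 0.25, adjusted p = 0.00336). Peg10 was lower by 0.85 (standard error 0.22, adjusted p = 0.0382), a call lost when the sorts were fitted alone (adjusted p = 0.189), under cyclic loess (0.0701) and without any of 5 of the 6 day 13 samples (0.0556 to 0.181), though without both samples numbered 3 it was -1.05 (adjusted p = 0.0047).

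Samples of equal number in the 2 sorts deviated together, as did samples 5 and 6 to a lesser degree. The sorts were therefore also compared with the number as a block. With that block over the 12 cultured samples, 5 of the 45 genes passed, where 5.8% of all probe sets did. The 5 were the 3 above with Cdkn1c (0.77, adjusted p = 0.0368) and Ndn (0.51, adjusted p = 0.0452) higher in GFP+ cells. Over the 6 day 13 samples alone 8 of the 45 passed, where 8.45% of all did. These were Asb4, Dlk1, Peg10 and Cdkn1c, with Meg3 (0.97, adjusted p = 0.00891), Plagl1 (0.80, adjusted p = 0.0181) and Mirg (0.48, adjusted p = 0.0334) higher and Ppp1r9a (-0.46, adjusted p = 0.0458) lower in GFP+ cells. In both block fits the share of the 45 lay above that of all probe sets, a difference that was not tested. Among the miRNA genes of the Dlk1-Dio3 interval 14 of 48 were higher in GFP+ cells without the block, where 2.02% of all probe sets were. Mir434 was higher by 1.38 (adjusted p = 0.0185).

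Of the 8 smooth muscle markers, 1 was higher in GFP+ than in GFP- cells, and their summed level was 11.79 to 12.02 against 10.83 to 11.48. Markers of other cells differed between the sorts as well. All 6 endoderm markers and 3 of 6 endothelial markers were lower in GFP+ cells. The summed endoderm level was 8.60 to 9.10 in GFP- and 6.92 to 7.05 in GFP+ samples, with Afp and Apob, both yolk sac and liver genes, at 5.17 to 6.11 and 6.80 to 7.58 in GFP- cells against 3.60 to 3.75 and 3.74 to 3.88 in GFP+ cells. The summed endothelial level was 8.23 to 8.71 against 7.53 to 7.92. Of 6 fibroblast markers 1 was higher in GFP+ cells, the collagen gene Col3a1 (1.38, adjusted p = 0.00994), with a list median of 1.09 and summed levels of 11.51 to 12.13 in GFP+ and 9.89 to 11.30 in GFP- samples, which did not overlap. The part of such cells in the differences of Asb4, Peg10, Dlk1, Meg3 and Plagl1 was not tested. Between GFP+ and aortic cells, 7 of 8 smooth muscle markers, 5 of 6 endothelial markers and 4 of 5 measured macrophage and leukocyte markers were higher and 3 of 6 cardiac markers lower in the aorta. The summed aortic levels were 13.71 to 13.78 for smooth muscle, 9.26 to 9.51 for endothelial markers, all 6 above the low-level reference, and 6.99 to 7.83 for macrophage and leukocyte markers, 2 of 5 above it. Cardiac markers summed to 9.74 to 10.03 in GFP+ cells and 7.28 to 7.64 in the aorta. Of 6 fibroblast markers 2 were higher and 2 lower in the aorta than in GFP+ cells. Their aortic sum was 11.15 to 11.90, with all 6 above the low-level reference. The part of these cells in the aortic differences of the imprinted genes was not tested.

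Genes that set or keep the methylation of imprinted regions were examined beside the 45. Of 18 such genes, 3 were higher and 5 lower at day 5, where 14.9% of all probe sets were higher and 13.9% lower. In GFP+ cells against day 0, 2 were higher and 11 lower (17.7% and 19.8% over all), and 10 were lower in the aorta than in GFP+ cells (19.5% over all). Dnmt3l, the cofactor that guides new methylation in germ cells and pluripotent cells, read 8.82, 8.65 and 8.62 at day 0 and 2.73, 2.71 and 3.12 at day 5, and fell by 5.85 (adjusted p = 1.04e-13) to a level under the reference. Tet2, a methylcytosine oxidase, fell by 3.66 (adjusted p = 5.08e-11) at day 5 and rose by 2.41 (adjusted p = 6.72e-09) in GFP+ cells. Dnmt3b, a methyltransferase that sets new marks, was lower in GFP+ than in GFP- cells by 2.02 (adjusted p = 2.48e-06) and fell by 3.75 (adjusted p = 1.59e-10) from day 5. Zfp57, a zinc finger protein that binds the methylated allele of control regions, fell by 0.96 (adjusted p = 0.0232) at day 5 and by 2.14 (adjusted p = 3.22e-05) in the aorta from GFP+ cells. Uhrf1 and Dnmt1, which copy methylation at replication, were 19.8-fold and 5.91-fold lower in the aorta than at day 0.

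Of 14 partners of Igf2 outside the imprinted clusters, 11 were higher and 2 lower in GFP+ cells than at day 5, where 14.3% of all probe sets were higher and 16.9% lower. In the aorta 4 were higher and 7 lower than in GFP+ cells, where 17.7% and 19.5% of all were. The binding proteins Igfbp7 and Igfbp5 rose by 6.45 (adjusted p = 3.69e-12) and 5.54 (adjusted p = 6.58e-11) in GFP+ cells, and Igf1, the postnatal growth factor of the same family, rose by 3.02 (adjusted p = 1.07e-06). Igfbp7 was higher still in the aorta, by 1.12 (adjusted p = 0.000109), and Igf1 did not differ there by the test (-0.21, adjusted p = 0.622), while Igf2 was lower. The 3 RNA-binding proteins Igf2bp1, Igf2bp2 and Igf2bp3, which bind the Igf2 message in the fetus, fell by 3.79 (adjusted p = 6.62e-10), 4.98 (adjusted p = 1.1e-12) and 3.79 (adjusted p = 3.49e-12) from GFP+ cells to the aorta.

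Of 34 further imprinted genes, 33 were measured, and their balance in the aorta differed in sign from that of the 45. There 14 were higher and 5 lower than in GFP+ cells, where 17.7% and 19.5% of all probe sets were, with a median of 0.28. The highest were Pon3, a paraoxonase of the Peg10 region, by 4.72 (adjusted p = 1.21e-11), Ano1, a calcium-activated chloride channel of smooth muscle, by 4.35 (adjusted p = 9.74e-12), Dcn, the matrix proteoglycan decorin, by 3.79 (adjusted p = 0.000105), and Peg13, a noncoding RNA, by 2.91 (adjusted p = 7.68e-07). Dcn is also on the list of fibroblast markers. Slc22a2, the neighbour of Slc22a3, was also higher, by 2.70 (adjusted p = 3.73e-09), with cultured samples between 2.08 and 2.70 and aortic samples of 5.18, 5.09 and 4.67. Between GFP+ and day 0 cells 13 were higher and 5 lower (17.7% and 19.8% over all). Many of these genes are imprinted in the placenta or brain alone, and the difference between the lists was not tested.

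Start regions were available in RefSeq for 38 of the 45 genes, 59 windows of equal length around a start in all. Their median number of CpG was 13, beside 7 over all 32851 windows. The letters TGCCGC, the core bound by ZFP57 when methylated, occurred on either strand in 13 of the 59 windows (22%), which belong to 12 genes, among them Igf2, Plagl1, Mest, Meg3, Grb10 and Nnat, and in 11.607% of all windows. Of the 13, 2 are overlapping windows of Mest. TGCCGC itself holds a CpG, and the windows were not matched for their number of CpG, so the 2 shares are not directly comparable. The letters GGGGCCCC, bound by PLAGL1, occurred in 4 of the 59 windows (6.78%), those of Ppp1r9a, Rasgrf1, Peg3 and Usp29, of which the last 2 share the site because their windows overlap, and in 1.078% of all windows. GCCATNTT, the YY1 core, occurred in 2 of the 59 windows (3.39%), those of Mkrn3 and Slc38a4, and in 6.052% of all windows. A match describes letters in a window, and no binding was measured.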

How the data were processed

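The deposited values are log2 expression values, 1 per probe set and sample, made with RMA and affy 1.36.1 in R 2.15.1 per the submitters' processing notes; their range shows the log2 scale. RMA subtracts background, equalises the distribution of values across arrays and summarises probes, so shifts shared by all genes are removed. The sources used here do not give the genome build behind the probe sets. Probe sets carry Entrez Gene IDs, and 23740 of 25206 were matched to a symbol through RefSeq's table for GRCm38.p6, and all 45 members matched, 43 of them also in the platform table. Values were used as deposited; no 2 samples held identical values, and 25.6% of probe sets held tied values.

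All 15 samples, 3 in each group, were fitted together with limma 3.58.1 in R 4.3.3 (10 residual and 5.09 prior degrees of freedom). Each of 7 comparisons was adjusted over all probe sets by Benjamini-Hochberg, and a gene passed at an adjusted p under 0.05. The fits were tested on simulated data. Every member is named. Values in every sample are given for members past the threshold whose groups do not overlap, by size of difference, up to 14 in a comparison, and from each list of other genes up to 4 past the threshold with the largest difference. Zfp57 at day 5, Slc22a2, Igf1 and Igfbp7 in the aorta, the marker genes and the single miRNA genes were named after their values were seen. The low-level reference is the 95th percentile of receptor genes not used in these cells, with the 99th as an alternative.

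In the day 13 sorts the correlation of deviations from the group means was 0.397 to 0.597 for equal numbers. For unequal numbers there it was -0.500 to 0.345, and between samples 5 and 6 it was 0.278 and 0.345. Much of this pattern is thus sample 3 against samples 5 and 6. In the other pairs of cultured groups, equal numbers gave -0.091 to 0.079. The alternatives were median centring, cyclic loess, array weights, trend and robust moderation, probe sets above the median level alone, fits of the 2 groups alone, a least log2 difference of 1, each sample left out and the number as a block. Members and lists were chosen with earlier results of these data known. The miRNA and snoRNA lists, the block over day 13 samples alone and the fit without the day 13 samples numbered 3 were added after values had been seen. Sequences are RefSeq's, in which 38 of the 45 genes had a start window.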

Additional observations from a re-analysis of the deposited data

Results flagged for a closer look

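For 3 imprinted genes the change from day 5 to day 13 differed between the sorts in the main fit. The difference of the changes is the GFP+ minus GFP- contrast itself, because both changes start from the same day 5 samples. For Dlk1, the change in GFP+ cells exceeded that in GFP- cells by 1.42. For Peg10 the value was -0.85, a steeper fall in GFP+ cells, and for Asb4 it was -2.29, a fall in GFP+ cells and a rise in GFP- cells. The Peg10 call was lost in 7 of 15 refits (highest adjusted p = 0.189), while those of Dlk1 and Asb4 held in all 15. All 6 endoderm markers were also lower in GFP+ cells, and their part in these values was not tested.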

How the results depend on the processing

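Of 149 passing results of the 45 genes, 132 kept their direction and stayed past the threshold in every refit that tested them, 16 lost the threshold in some and 1 turned. This count leaves out the added requirement of a log2 difference of at least 1, which 106 of the 149 met. The one that turned was Cd81 in aortic minus day 13 GFP+ cells, at 0.19 (adjusted p = 0.193) under cyclic loess; the cause was not tested. Median centring and cyclic loess moved sample medians by up to 0.107 and 0.151, and neither moved the share of higher results by over 10 percentage points. That requirement left 15 genes between day 5 and day 0 and 15 between aorta and day 0, by construction. Between the day 13 sorts 8 genes passed with array weights, 5 with the replicate block and 8 with the block over day 13 samples alone. In the 2 block fits 5.8% and 8.45% of all probe sets passed, and with array weights their share was not counted. The cause of these changes in number was not tested. The block gave 24 genes at day 5, 22 in GFP- and 25 in GFP+ cells against day 5, and the shares over all probe sets were not counted there. No paired analysis was possible for the aorta because it shares fewer than 2 numbers with the cultured groups.

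Leaving out single samples gave 22 to 24 genes for day 5 minus day 0, 20 to 21 for GFP- and 22 to 24 for GFP+ cells minus day 5, 2 to 4 between the sorts, 26 to 28 for GFP+ minus day 0, 27 to 31 for aorta minus GFP+ and 19 to 23 for aorta minus day 0. The shares over all probe sets in these leave-out fits were not counted. With 3 arrays a group, small differences are the least certain. Genes under the low-level reference have no interpretable level, and with the 99th percentile as the reference 18 genes in place of 29 lay above it in the aorta.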
